A study of Mus musculus with 16 samples.

Results

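A set of 8 genes that make, degrade or bind hyaluronan was followed on microarrays of primary mouse lung fibroblasts after knockdown of Lox, Loxl1 or Loxl2, whose lysyl oxidase products begin collagen and elastin cross-links. They were chosen by name (Has1, Has2, Has3, Hyal1, Hyal2, Vcan, Cd44 and Tnfaip6), at every non-control probe whose gene name in the scanner files was one of these 8: 16 of 55681 probes. The cells had been cultured from lung tissue, passaged at least 3 times, transfected with a small interfering RNA (siRNA) and collected 48 hours later, and Cy3-labelled RNA was made from 0.1 µg of total RNA. The groups were scr (a scrambled siRNA), siLox (against Lox), siLoxL1 (against Loxl1) and siLoxL2 (against Loxl2), with 4 arrays each, on 1-colour Agilent arrays. No untransfected cells were among the samples used here, so all 4 groups share the transfection. The mouse strain, age and sex, the number of animals and the number of siRNA sequences per target are not given in the sources used here, nor whether replicates came from separate cultures, so p-values reflect only the variation among these arrays, which may be technical.

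Hyaluronan is a long, unsulphated chain of alternating sugars that is extruded through the plasma membrane by the hyaluronan synthases Has1, Has2 and Has3, and in fibroblasts Has2 is usually the main synthase. Hyal2, anchored at the cell surface, and Hyal1, in the lysosome, cut the chain stepwise. In the matrix the chain carries versican (Vcan), a large proteoglycan, and is modified by TSG-6 (Tnfaip6), which transfers inter-alpha-inhibitor heavy chains onto it, and at the cell surface CD44 binds it. In the lung, hyaluronan-rich matrix is laid down during injury and fibrosis, by fibroblasts among other cells.

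Sequences are shown first for 2 members whose probes read different stretches of the transcript. Cd44 has constant ends and a middle made of alternatively spliced variable exons. Its probes start at bases 1777, 1965, 2614 and 5494 of the same transcript record. The first 2 lie 188 bases apart on the transcript but 5326 bases apart in the genome (mouse build mm9, chr2:102677971-102678030 and chr2:102672645-102672704, minus strand), so an intron lies between them. The probe at base 2614 (chr2:102654278-102654337, minus strand) spans the end of the coding sequence. Vcan was read at base 12207 of transcript variant 1 (chr13:89795080-89795139, minus strand) and at base 1428 of transcript variant 5, a stretch that the scanner files list for other variants too (chr13:89851810-89851869, minus strand), 56730 bases away. The following 60-base probes, from the scanner files and written 5′ to 3′, show what was read at 3 of the 4 Cd44 probes and at the Vcan probe at base 1428. Capitals mark the stop triplet in the frame of the first base, at base 46 of the probe at 2614.
Cd44, base 1777: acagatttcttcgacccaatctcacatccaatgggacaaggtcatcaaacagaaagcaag
Cd44, base 1965: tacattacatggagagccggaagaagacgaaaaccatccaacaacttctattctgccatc
Cd44, base 2614: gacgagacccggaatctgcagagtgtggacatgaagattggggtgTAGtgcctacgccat
Vcan, base 1428: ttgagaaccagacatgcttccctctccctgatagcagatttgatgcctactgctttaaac

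The 4 members Has2, Hyal2, Vcan (base 12207) and Cd44 (base 2614) were higher in both comparisons made within a slide, as described further on. The other tested probes of Vcan and Cd44, the brightest of Cd44 among them, did not pass in both. Promoters of 3 of these 4 members are given on that ground, from RefSeq (mouse assembly GRCm38.p6, which is not the build of the probes). They are the 250 bases before the annotated start on the gene's strand. Of the 8 members, 6 had an entry. The windows were searched on both strands for a TATA box (TATAAA), a GC box (GGGCGG), an AP-1 site (TGANTCA), a TEAD site (CATTCC) and an NF-kB site (by its usual 10-base consensus). Capitals mark matches. The Hyal2 window is chr9:107568913-107569162 (plus strand), that of Vcan chr13:89742513-89742762 (minus strand) and that of Cd44 chr2:102901666-102901915 (minus strand).
Hyal2 promoter: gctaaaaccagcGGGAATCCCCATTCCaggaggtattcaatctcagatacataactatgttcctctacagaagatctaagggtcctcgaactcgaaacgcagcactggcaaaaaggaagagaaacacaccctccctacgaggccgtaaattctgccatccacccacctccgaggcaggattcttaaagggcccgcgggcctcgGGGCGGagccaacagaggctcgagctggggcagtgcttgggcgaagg
Vcan promoter: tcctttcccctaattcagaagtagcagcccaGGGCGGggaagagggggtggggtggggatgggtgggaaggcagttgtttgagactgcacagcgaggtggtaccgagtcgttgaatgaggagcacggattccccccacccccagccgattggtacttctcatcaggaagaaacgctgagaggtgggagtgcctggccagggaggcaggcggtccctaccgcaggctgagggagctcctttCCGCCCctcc
Cd44 promoter: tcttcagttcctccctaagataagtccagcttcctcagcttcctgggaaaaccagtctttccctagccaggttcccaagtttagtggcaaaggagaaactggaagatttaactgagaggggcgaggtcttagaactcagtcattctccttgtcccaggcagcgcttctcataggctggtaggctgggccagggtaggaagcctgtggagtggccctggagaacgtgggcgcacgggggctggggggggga
The Hyal2 window held a GC box 47 bases before the start, a TEAD match 229 bases and an NF-kB match 238 bases before it, and these last 2 shared bases. The Vcan window held GC boxes 219 and 10 bases before the start, and in the Cd44 window none of the 5 motifs was found. Among 32851 RefSeq promoter windows of the same length, 32.7% held a GC box, 12.4% a TATA box, 12.6% a TEAD match, 6.75% an AP-1 match and 3.90% an NF-kB match. A match is a description of these letters only.

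Levels are log2 intensities after subtraction of the array's own 75th percentile over non-control probes, so that 0 is that percentile, and they compare arrays for a given probe, not probes with each other. The 8 scr and siLox arrays were on slide 1 and the 8 siLoxL1 and siLoxL2 arrays on slide 2, per the file headers. The comparison of siLox with scr and that of siLoxL1 with siLoxL2 therefore lie within a slide and have no array in common. On each slide the groups lay in different rows, scr and siLoxL1 in row 1 and siLox and siLoxL2 in row 2. In these 2 comparisons siRNA and row therefore cannot be told apart. In siLoxL1 or siLoxL2 against scr, siRNA and slide cannot be told apart. The arrays of slide 2 were brighter (75th percentile 9.74 to 9.90, against 8.67 to 9.03 on slide 1, log2), had 60.4 to 63.1% of spots well above background against 49.2 to 52.3%, and varied less within a group (median SD 0.0979 and 0.100, against 0.145 in siLox and 0.183 in scr). A log2 fold change is the difference of 2 group means of these levels. It is given with its standard error (SE) and with a Benjamini-Hochberg adjusted p of limma over the 32430 probes tested; an adjusted p under 0.05 is called a change.

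The targeted genes were measured first as a check of the labels. In siLox against scr, Lox fell by 2.92 on the log2 scale (SE 0.31, adjusted p 0.00387), and in siLoxL1 against siLoxL2, Loxl1 fell by 1.15 (SE 0.06, adjusted p 0.000223). Against scr, Loxl2 fell in siLoxL2 (−1.06), but also in siLoxL1 (−0.76), and between siLoxL1 and siLoxL2, within slide 2, its difference of 0.30 did not pass (adjusted p 0.0645). Loxl1 and Loxl2 were also lower in siLox than in scr (−0.49 and −0.71, adjusted p 0.0395 and 0.0282). All 8 fibroblast markers measured (such as Col1a1, Pdgfra and Thy1) were well above background in every group and 0 of 4 epithelial markers were in any. All 10 leukocyte and macrophage markers, Ptprc among them, were also well above background on every array, and so were all 8 mesothelial markers. Of 4 endothelial markers, 2 to 4 were well above background on all arrays of a group, with Tek at background in scr and siLox. In RNA from whole cultures, fewer cells of a type and less RNA per cell cannot be told apart.

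Of the 16 member probes, 13, from 7 genes, were detected (well above background throughout the 4 arrays of some group) and were tested. Has3 was not well above background on any of the 16 arrays at its only probe. The Vcan probe at base 3166 of variant 5 was above background on 4 arrays, 2 of siLoxL1 and 2 of siLoxL2, and the Tnfaip6 probe at base 906 on 2 arrays of siLoxL1. These 3 probes were not tested. A further 2 dim probes passed only through other groups, Cd44 at base 1965 and Tnfaip6 at base 1541, each above background on 3 of 4 scr arrays.

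**Figure D1:**
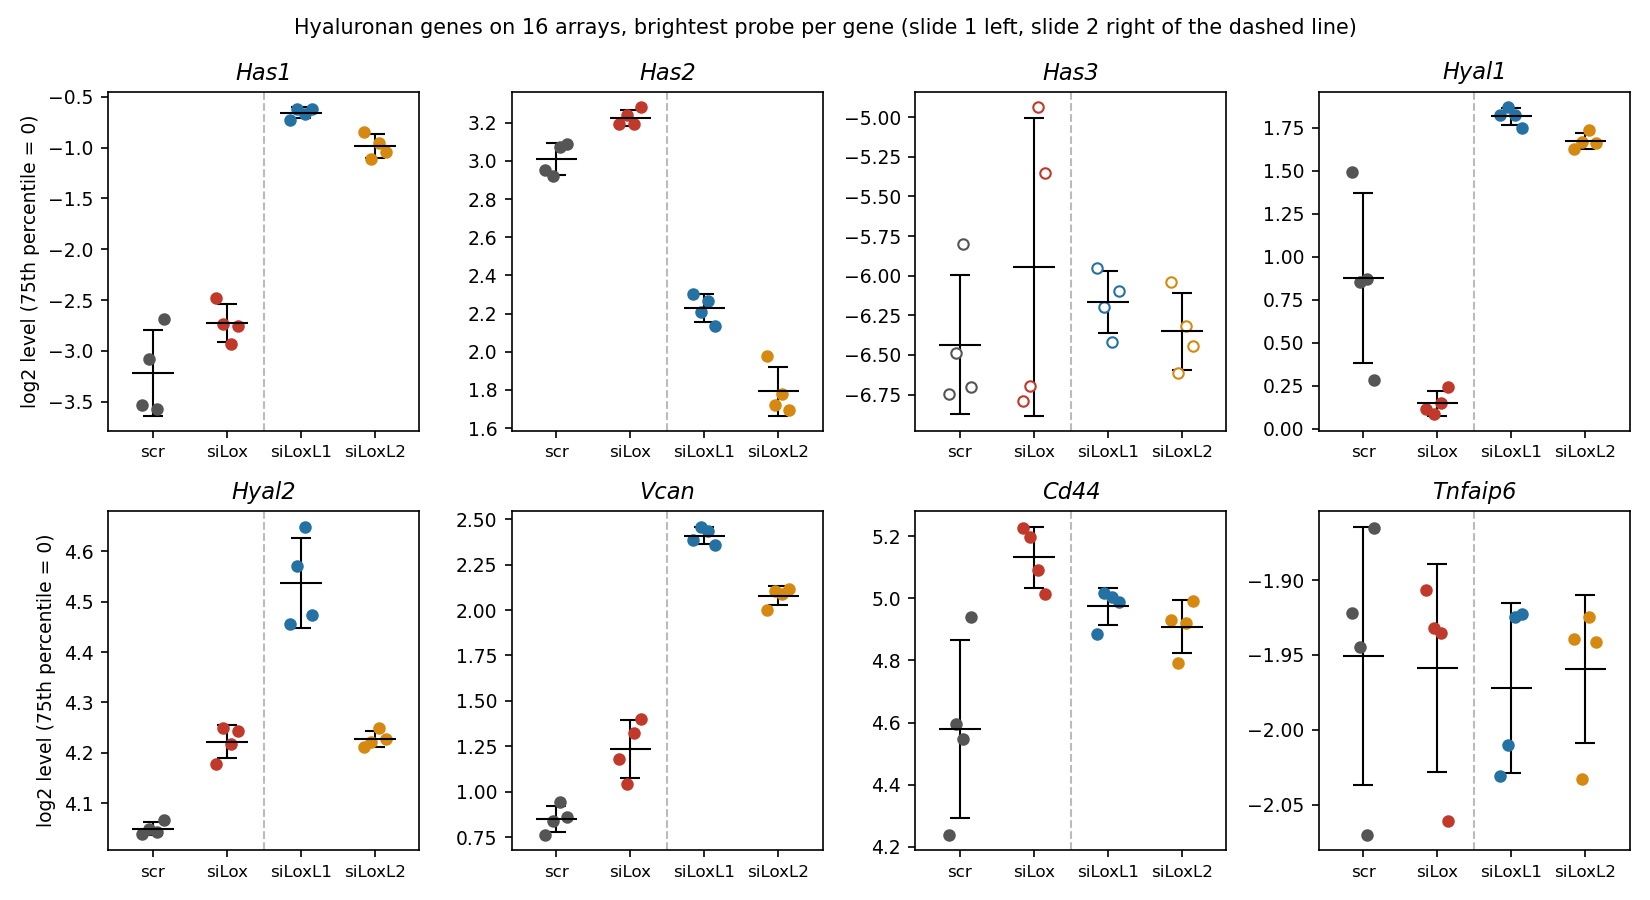
Levels of the 8 members at the brightest probe of each gene (log2, 75th percentile of the array = 0) on the 4 arrays of each group; horizontal bars are means, error bars SDs (n = 4), and open circles are arrays on which the probe was not well above background. Has2 falls into 4 groups of arrays that do not overlap, from 1.69 to 1.98 in siLoxL2 up to 3.19 to 3.28 in siLox, while the 4 group means of Tnfaip6 lie between −1.97 and −1.95.

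Between siLox and scr, within slide 1, transcripts of a synthase, a hyaluronidase and 2 binding proteins were higher after Lox knockdown and those of another hyaluronidase were lower. Has2, Hyal2, Vcan at base 12207 and Cd44 at bases 2614 and 5494 rose by between 0.17 and 0.61, and Hyal1 at base 1603 fell by 0.99. Of the 13 probes, 6 changed (5 higher, 1 lower), where 21.1% of all probes tested changed (9.67% higher and 11.5% lower). At 7 of the 13 the 2 groups stood apart, against 28.7% of all probes. The median log2 fold change of the 13 probes was 0.22 and that of all probes −0.05. The calls depended on single arrays: without scr replicate 3, siLox replicate 1 or siLox replicate 3, 0 of the 13 probes passed limma's adjusted threshold (smallest adjusted p 0.0567, 0.0510 and 0.0513), with 7, 8 and 8 at an unadjusted p under 0.05. Without scr replicate 2 or siLox replicate 2 there was 1 call, without scr replicate 1 there were 2, and without siLox replicate 4 or scr replicate 4 there were 4 and 8.

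Between siLoxL1 and siLoxL2, within slide 2, every member that changed was higher in siLoxL1. Both groups are knockdowns, so a rise after Loxl1 knockdown and a fall after Loxl2 knockdown cannot be told apart here. Both detected synthases (Has1 by 0.33 and Has2 by 0.43), Hyal2 (0.31), Vcan at base 12207 (0.33) and Cd44 at base 2614 (0.33) were higher. These are 5 of 13 probes. Among all probes 6.73% changed, 4.41% higher and 2.32% lower; with arrays centred on their medians that split was 1756 higher and 437 lower in place of 1429 and 753. Groups did not overlap at 7 of the 13 probes and at 19% of all probes. The median over the 13 was 0.19, against 0.03 over all probes. There were 2 calls left without siLoxL1 replicate 2 or siLoxL2 replicate 4 and 3 without siLoxL1 replicate 3 or siLoxL2 replicate 3.

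Has2, Hyal2, Vcan (base 12207) and Cd44 (base 2614) were higher in both of these comparisons, 4 of 13 member probes (30.8%). Over all probes, 234 were higher in both, 0.722% of those tested, 7.46% of those higher in siLox than in scr and 16.4% of those higher in siLoxL1 than in siLoxL2. No array was shared between the 2 comparisons, whose controls differ in kind: a scrambled siRNA in one and another knockdown in the other. The 4 member calls were kept, in the order named, in 1, 1, 3 and 4 of 8 leave-one-out fits of siLox against scr. In siLoxL1 against siLoxL2 they were kept in 4, 6, 8 and 8 of 8. With median centring, Has2 and Hyal2 did not pass in siLox against scr.

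**Figure D2:**
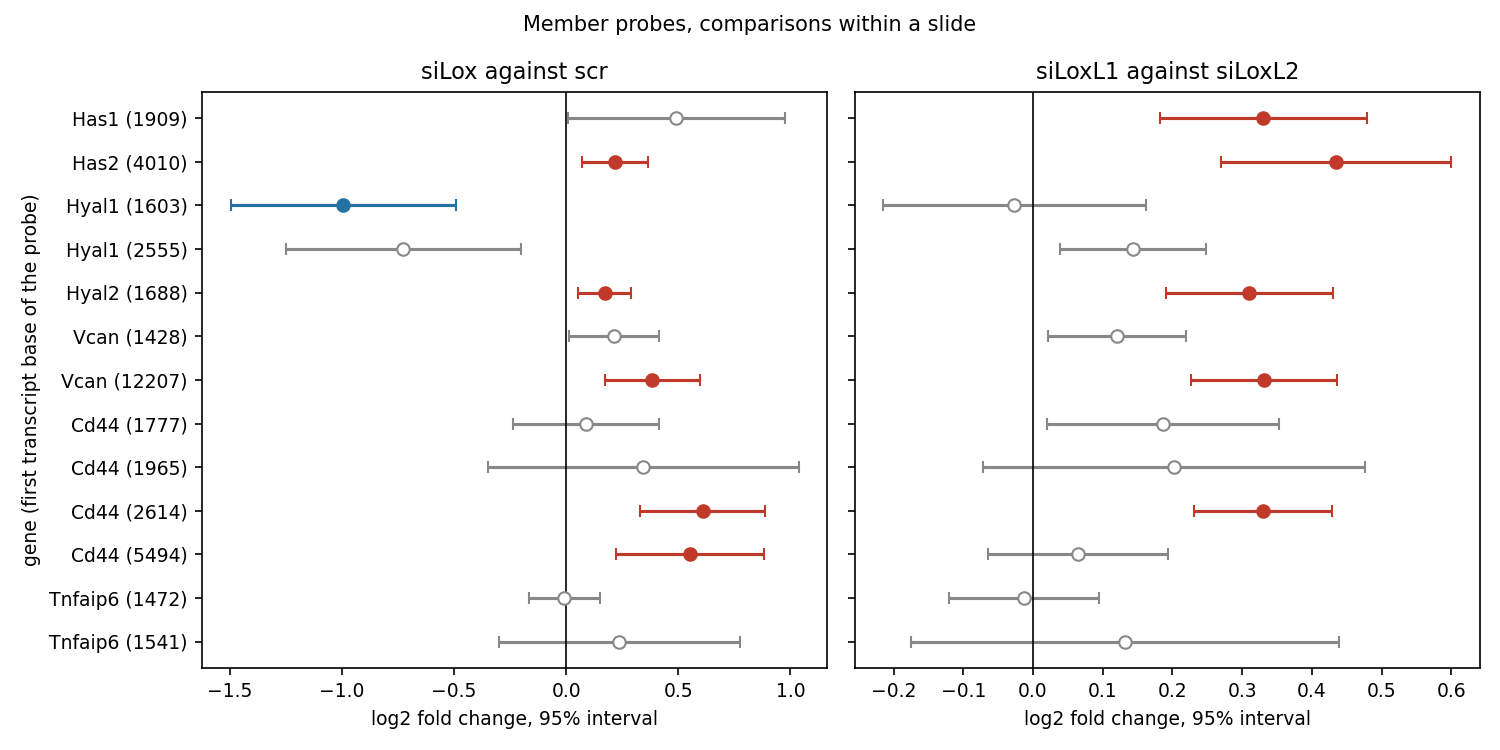
Log2 fold changes of the 13 member probes tested, with 95% intervals (limma, 8 arrays per comparison), for siLox against scr and siLoxL1 against siLoxL2; the number after a gene is the first transcript base of its probe, and filled points passed an adjusted p of 0.05 (red higher, blue lower). The only member below 0 with a call is Hyal1 at base 1603 (−0.99, siLox against scr), and the 2 panels have different axis ranges.

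Against scr, the arrays of slide 2 showed larger differences than within a slide for Has1, Has2, Vcan and Hyal1 at base 2555. The directions were opposite for the 2 detected synthases. At Cd44 (bases 2614 and 5494) the differences were smaller than in siLox against scr. Has1 was 5.90-fold higher in siLoxL1 and 4.69-fold higher in siLoxL2, while Has2 was 1.72-fold and 2.32-fold lower. Vcan at base 12207 was 2.94-fold and 2.34-fold higher. For siLoxL1, 8 of 13 probes changed (7 higher, 1 lower), where 59.2% of all probes did (38.5% higher, 20.7% lower), and for siLoxL2 7 of 13 (6 higher, 1 lower), where 58.3% did (36.7% higher, 21.7% lower). A share of the members near that of all probes is no result about the members. At 7 and 6 of the 13 probes the groups stood apart, against 55.6% and 54.9% of all probes. Both comparisons use the same 4 scr arrays.

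The scale of the comparisons between slides depended on the processing. The median log2 fold change of all probes was 0.18 for siLoxL1 and 0.16 for siLoxL2, 0.08 and 0.06 after quantile normalization and −0.15 and −0.16 after normexp background correction, so changes between slides are read relative to that shift. The split of calls, 12486 higher and 6701 lower for siLoxL1 and 11893 and 7027 for siLoxL2, became 10143 and 15395, and 9748 and 15643, with normexp, and 9925 and 8116, and 9535 and 8467, with quantile normalization. Has1, Has2, Vcan (both tested probes) and Hyal1 at base 2555 kept their direction and their call in both comparisons under each alternative that tested them, leave-one-out fits included.

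**Figure D3:**
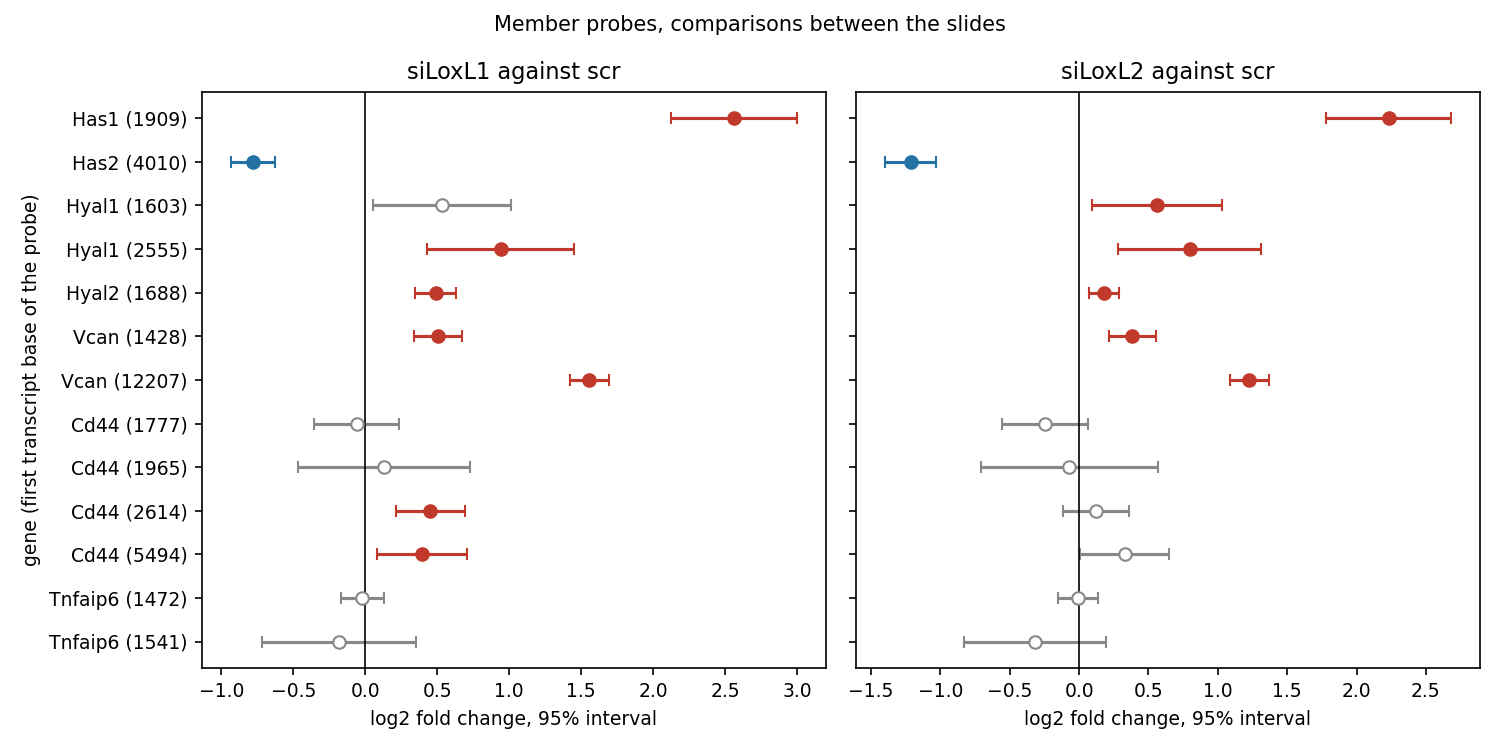
Log2 fold changes of the same 13 probes with 95% intervals for siLoxL1 and siLoxL2 against scr, which lie on different slides and share the 4 scr arrays; symbols are as for the comparisons within a slide. Has1 lies at 2.56 and 2.23 and Has2 at −0.78 and −1.22, on opposite sides of 0.

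Has2, usually the main fibroblast synthase, was read by 1 probe (mm9 chr15:56497356-56497415, minus strand). Its levels were 2.95, 2.92, 3.07 and 3.09 in scr and 3.20, 3.24, 3.19 and 3.28 in siLox. On slide 2 they were 2.30, 2.21, 2.26 and 2.13 in siLoxL1 and 1.98, 1.72, 1.78 and 1.69 in siLoxL2. The 4 groups did not overlap, in the order siLoxL2, siLoxL1, scr and siLox from low to high, and the gap between the slides was larger than any gap within one. Has2 was 1.16-fold higher in siLox than in scr (log2 0.22, SE 0.06, adjusted p 0.0473) and 1.35-fold higher in siLoxL1 than in siLoxL2 (0.43, SE 0.07, adjusted p 0.0174). The exact two-sided permutation test of 4 against 4 arrays gave p 0.0286 for each, the smallest that 70 arrangements allow. The first call was lost without any 1 of the other arrays but scr replicate 4 (adjusted p 0.0316 to 0.114 over the 8 fits), and the second without siLoxL1 replicate 2 or 3 or siLoxL2 replicate 3 or 4 (0.0107 to 0.0538 over the 8). Against scr Has2 fell by 0.78 in siLoxL1 (SE 0.07, adjusted p 3.77e-05) and fell by 1.22 in siLoxL2 (SE 0.08, adjusted p 1.42e-05).

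Has2os, a noncoding RNA from the opposite strand of the Has2 locus, is not a member and was looked at after its values were seen. Its levels were −2.39, −2.33, −2.70 and −2.73 in scr and −1.97, −2.28, −1.90 and −1.97 in siLox. It was 0.51 higher in siLox (SE 0.13, adjusted p 0.0322), like Has2, but also higher against scr in siLoxL1 (0.40, adjusted p 0.0264) and siLoxL2 (0.28, adjusted p 0.0481), where Has2 fell. Its difference between siLoxL1 and siLoxL2 was 0.13 (SE 0.09, adjusted p 0.396).

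Has1, a second synthase, differed most between the slides (chr17:17980413-17980472, minus strand). Its levels were −3.53, −3.08, −3.57 and −2.68 in scr and −2.48, −2.74, −2.93 and −2.75 in siLox. They were −0.73, −0.62, −0.66 and −0.62 in siLoxL1 and −0.84, −1.11, −0.95 and −1.04 in siLoxL2. The probe was well above background on all 16 arrays; scr and siLox overlapped, both groups of slide 2 lay above them, and siLoxL1 lay above siLoxL2. The difference of 0.49 between siLox and scr did not pass (95% interval 0.01 to 0.97, adjusted p 0.123), although it did without scr replicate 4 (adjusted p 0.0221). Has1 was 1.26-fold higher in siLoxL1 than in siLoxL2 (0.33, SE 0.06, adjusted p 0.0278), a call kept without replicate 1 of either group and lost without any 1 of the other 6 arrays (adjusted p up to 0.0803). Against scr it was higher by 2.56 in siLoxL1 (SE 0.19, adjusted p 1.83e-05) and by 2.23 in siLoxL2 (SE 0.20, adjusted p 5.05e-05), or by 1.57 and 1.32 with normexp.

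Has3, the synthase of shorter chains, gave levels of −6.79 to −4.94 over the 16 arrays (chr8:109405354-109405413, plus strand). None was well above background, so no fold is given.

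Hyal1, the lysosomal hyaluronidase, had 2 probes, at bases 1603 (chr9:107481893-107481952) and 2555 (chr9:107483891-107483950), both on the plus strand. The first number counts along a RefSeq transcript record and the second along an Ensembl one, so they are not positions on 1 record. At base 1603 the levels were 0.15, −0.41, −0.37 and −0.93 in scr and −1.60, −1.45, −1.30 and −1.18 in siLox. At base 2555 they were 1.49, 0.85, 0.87 and 0.28 in scr and 0.11, 0.08, 0.15 and 0.24 in siLox. Every siLox array lay below every scr array at both probes, and scr replicate 4 was the scr array nearest to siLox. At base 1603 Hyal1 was 1.99-fold lower in siLox (−0.99, SE 0.22, adjusted p 0.0223); the call held without scr replicates 1 or 4 or siLox replicate 4 and was lost without any 1 of the other 5 arrays (adjusted p up to 0.0632). At base 2555 the difference of −0.73 did not pass (SE 0.23, adjusted p 0.0557), although it did without scr replicate 4 (0.0110).

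On slide 2 Hyal1 at base 1603 measured −0.06, 0.21, 0.18 and 0.26 in siLoxL1 and 0.05, 0.14, 0.27 and 0.23 in siLoxL2. At base 2555 it measured 1.82, 1.87, 1.83 and 1.74 in siLoxL1 and 1.62, 1.67, 1.74 and 1.66 in siLoxL2. These groups overlapped at base 1603 and stood just apart at base 2555, where the order from low to high was siLox, scr, siLoxL2 and siLoxL1. The differences between siLoxL1 and siLoxL2, −0.03 (95% interval −0.21 to 0.16) and 0.14 (0.04 to 0.25), did not pass, with adjusted p 0.866 and 0.0982. Against scr, base 2555 was higher by 0.94 in siLoxL1 and 0.80 in siLoxL2 (adjusted p 0.00712 and 0.0158). Base 1603 was higher by 0.54 in siLoxL1 without passing (adjusted p 0.0550, or 0.00575 without scr replicate 1) and by 0.56 in siLoxL2 with a call (0.0437) that was kept in 1 of the 8 leave-one-out fits, that without scr replicate 1.

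Hyal2, the surface hyaluronidase, lies beside Hyal1 on chromosome 9 (chr9:107474949-107475008, plus strand). Its levels were 4.04, 4.05, 4.04 and 4.07 in scr and 4.18, 4.25, 4.22 and 4.24 in siLox. They were 4.46, 4.57, 4.65 and 4.47 in siLoxL1 and 4.21, 4.22, 4.25 and 4.23 in siLoxL2. The scr arrays were lowest and the siLoxL1 arrays highest without overlap, and siLox and siLoxL2 covered the same range between them. Hyal2 was 1.13-fold higher in siLox than in scr (0.17, SE 0.05, adjusted p 0.0485), a small difference that stayed called in 1 of the 8 leave-one-out fits, that without scr replicate 4 (adjusted p 0.0472 to 0.127). It was 1.24-fold higher in siLoxL1 than in siLoxL2 (0.31, SE 0.05, adjusted p 0.0181), a call lost without siLoxL1 replicate 2 or siLoxL2 replicate 4 (up to 0.0568). Against scr it was higher by 0.49 in siLoxL1 (SE 0.06, adjusted p 2.60e-04). In siLoxL2 the difference of 0.18 (adjusted p 0.0114) was about the shift of all probes and vanished with quantile normalization (−0.00068, adjusted p 0.991).

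Vcan, the large proteoglycan that binds hyaluronan through its N-terminal part, was brightest at base 12207. Its levels there were 0.76, 0.84, 0.94 and 0.86 in scr and 1.18, 1.04, 1.32 and 1.40 in siLox. They were 2.38, 2.46, 2.44 and 2.36 in siLoxL1 and 2.00, 2.11, 2.09 and 2.12 in siLoxL2. No 2 groups overlapped, in the order scr, siLox, siLoxL2 and siLoxL1. Vcan was 1.31-fold higher in siLox than in scr (0.39, SE 0.09, adjusted p 0.0279); this call held without scr replicate 4, siLox replicate 2 or siLox replicate 4 and was lost without any 1 of the other 5 arrays (up to 0.0791). It was 1.26-fold higher in siLoxL1 than in siLoxL2 (0.33, SE 0.05, adjusted p 0.0107), which passed in all 8 leave-one-out fits. Against scr it was higher by 1.56 (SE 0.06, adjusted p 9.71e-07) and 1.23 (SE 0.06, adjusted p 4.06e-06).

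At base 1428 of variant 5, whose sequence is printed above, the differences had the same sign and were smaller. Levels were −0.06, 0.08, 0.08 and 0.23 in scr and 0.16, 0.30, 0.42 and 0.29 in siLox. They were 0.61, 0.62, 0.53 and 0.58 in siLoxL1 and 0.42, 0.53, 0.44 and 0.48 in siLoxL2. Here scr and siLox overlapped (0.21, adjusted p 0.113), siLoxL1 stood apart from siLoxL2 without passing (0.12, adjusted p 0.130), and both stood above scr, by 0.50 (adjusted p 5.65e-04) and 0.38 (adjusted p 0.00261). The change at base 12207 exceeded that at base 1428 by 1.05 (SE 0.06) for siLoxL1 against scr, by 0.84 (SE 0.05) for siLoxL2 against scr and by 0.21 (SE 0.04) for siLoxL1 against siLoxL2. Each gave an exact two-sided permutation p of 0.0286, the smallest possible, and an adjusted p of 0.0508 over 16 such tests, which used 4 pairs of probes chosen after their values were seen. For siLox against scr the excess was 0.17 (exact p 0.143). Probes can differ in how steeply signal follows RNA, so unequal change on this scale is a description.

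**Figure D4:**
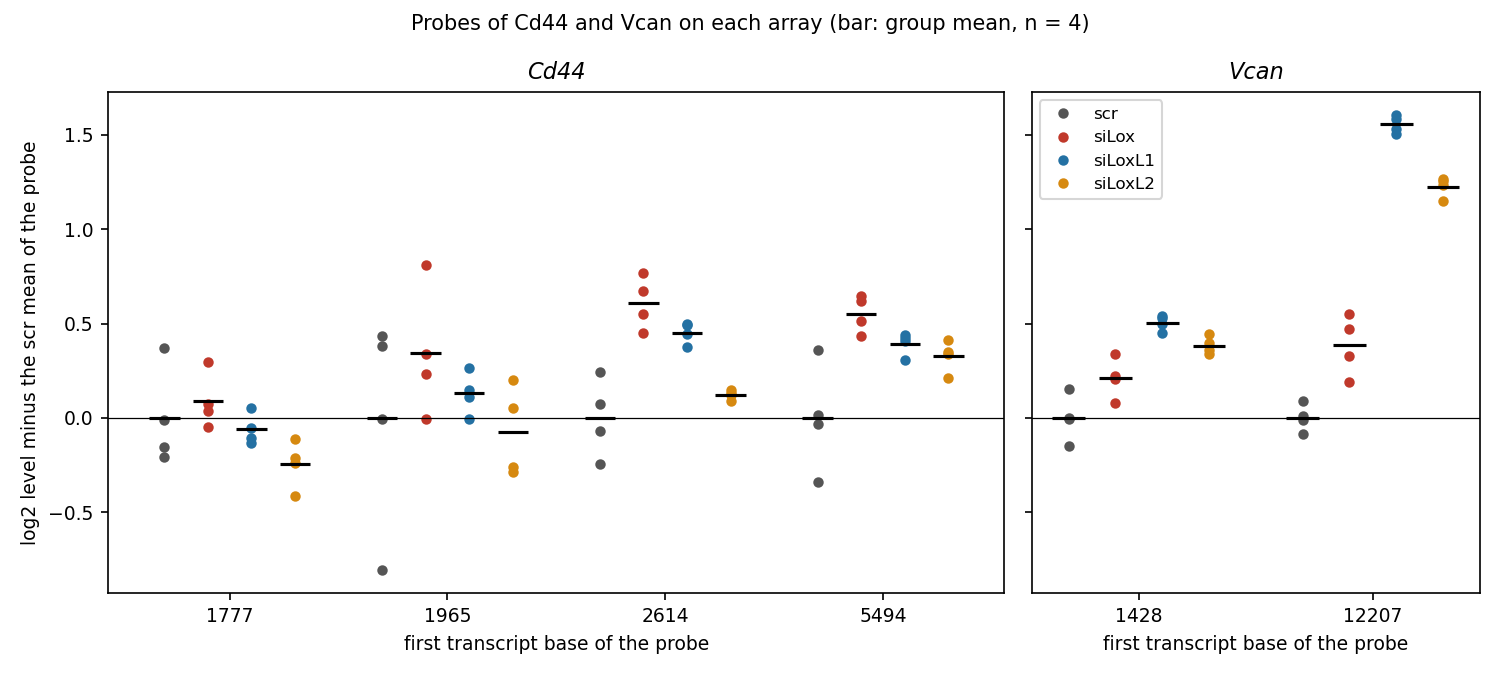
Levels of 4 Cd44 probes and 2 Vcan probes on each array, minus the scr mean of the same probe (log2), ordered by the first transcript base of the probe; points are arrays and bars group means (n = 4). At Cd44 the siLox arrays average 0.61 and 0.55 above scr at bases 2614 and 5494 and 0.09 at base 1777, and at Vcan the siLoxL1 arrays average 1.56 above scr at base 12207 and 0.50 at base 1428.

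Tnfaip6, the TSG-6 gene, did not pass in any comparison, although with normexp it was called lower in siLoxL1 and siLoxL2 than in scr (−0.22 and −0.25 at base 1472, −0.67 and −0.72 at base 1541). At its brightest probe (base 1472, chr2:51912073-51912132, plus strand) levels were −1.92, −1.94, −2.07 and −1.87 in scr and −1.91, −1.93, −1.94 and −2.06 in siLox. They were −2.03, −2.01, −1.92 and −1.92 in siLoxL1 and −1.94, −2.03, −1.92 and −1.94 in siLoxL2. All 4 groups overlapped, and the 4 group means, −1.95, −1.96, −1.97 and −1.96, differed by less than the SD within each group. The 95% interval of the difference was −0.17 to 0.15 for siLox against scr and −0.12 to 0.10 for siLoxL1 against siLoxL2. At the dimmer probe at base 1541 the differences were 0.24 (interval −0.30 to 0.77) and 0.13 (−0.18 to 0.44). There the difference of −0.32 between siLoxL2 and scr did not pass (adjusted p 0.252), although it did without scr replicate 2 (−0.53, adjusted p 0.0160).

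Cd44, the main surface receptor of hyaluronan, was brightest at base 5494 (chr2:102651398-102651457, minus strand). Its levels there were 4.24, 4.60, 4.55 and 4.94 in scr and 5.23, 5.20, 5.09 and 5.01 in siLox. They were 4.89, 5.02, 5.01 and 4.99 in siLoxL1 and 4.93, 4.79, 4.92 and 4.99 in siLoxL2. All siLox arrays lay above all scr arrays, the scr arrays were the most spread, and the 2 groups of slide 2 overlapped each other and scr. At base 2614 the levels were 3.39, 3.71, 3.56 and 3.88 in scr and 4.40, 4.31, 4.19 and 4.08 in siLox. They were 4.01, 4.08, 4.14 and 4.13 in siLoxL1 and 3.77, 3.78, 3.76 and 3.73 in siLoxL2, so that siLoxL2 lay inside the range of scr and siLoxL1 above both.

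Cd44 was 1.52-fold higher in siLox than in scr at base 2614 (0.61, SE 0.12, adjusted p 0.0180) and 1.47-fold at base 5494 (0.55, SE 0.14, adjusted p 0.0344). The first call was lost without scr replicate 3 or siLox replicate 1, 2 or 3 (up to 0.0567), and the second was kept without replicate 4 of either group and lost without any 1 of the other 6 arrays (up to 0.0884). Base 2614 was also higher in siLoxL1 than in siLoxL2, by 0.33 (SE 0.04, adjusted p 0.0101), which passed in all 8 leave-one-out fits. At base 5494 the difference was 0.07 (95% interval −0.06 to 0.19, adjusted p 0.502), so the 2 probes gave different calls. Against scr, siLoxL1 was higher by 0.45 at base 2614 (adjusted p 0.00648) and 0.39 at base 5494 (adjusted p 0.0361, kept only without scr replicate 4 among the 8 leave-one-out fits). With quantile normalization these fell to 0.25 and 0.14 (adjusted p 0.0708 and 0.400). For siLoxL2 the values were 0.12 and 0.33, neither of which passed (0.331 and 0.0732), although base 5494 did without scr replicate 4 (0.45, adjusted p 0.00838).

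The 2 dim Cd44 probes in the middle of the gene, printed above, did not pass in any of the 4 comparisons. With normexp both were called lower than scr in siLoxL1 (−0.26 at base 1777 and −0.48 at base 1965) and in siLoxL2 (−0.40 and −0.60). At base 1777 levels were −2.07, −2.60, −2.65 and −2.46 in scr and −2.15, −2.41, −2.37 and −2.49 in siLox, which overlapped (0.09, 95% interval −0.24 to 0.42). At base 1965 they ran from −4.56 to −3.32 in scr and from −3.76 to −2.95 in siLox (0.34, interval −0.35 to 1.04). The change at base 2614 exceeded that at base 1777 by 0.52 (SE 0.21) for siLox against scr, with an exact two-sided permutation p of 0.0286 and an adjusted p of 0.0508 over the 16 tests. The excess at base 5494 was 0.46 (SE 0.25, exact p 0.0571, adjusted 0.0762). At Hyal1 the log2 fold change at base 2555 exceeded that at base 1603 by 0.27, 0.40 and 0.23 for siLox, siLoxL1 and siLoxL2 against scr (exact p 0.0286, adjusted 0.0508 each). None of the 16 tests passed after adjustment. The smallest possible exact permutation p, 0.0286, became 0.0508 here, so no test could pass, and not passing does not show equal change.

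Marker levels of other cells differed between the arrays of slide 1. The mean level of the 10 leukocyte and macrophage markers was −0.73, −0.45, −0.26 and 0.18 on scr replicates 1, 2, 3 and 4, and 0.04, 0.28, 0.07 and 0.25 in siLox. The scr array with the lowest marker mean had the lowest Cd44 (4.24) and the highest Hyal1 (1.49), and that with the highest marker mean had the highest Cd44 (4.94) and the lowest Hyal1 (0.28). In siLox the order was another: replicate 1, with the lowest marker mean, had the highest Cd44 (5.23), and replicate 4 had the lowest Cd44 (5.01) and the highest Hyal1 (0.24). The summed level of the 10 markers was 4.56 to 4.83 in scr, 4.66 to 4.91 in siLox, 5.06 to 5.17 in siLoxL1 and 5.19 to 5.31 in siLoxL2 (log2). Of the 10, 1 changed between siLox and scr (Marco, 1.08 higher) and 0 changed between siLoxL1 and siLoxL2 by limma's adjusted p (6 at an unadjusted p under 0.05). Of the 8 fibroblast markers, 3 fell in siLox against scr (Thy1 −0.84, Pdgfrb −0.79 and Col1a2 −0.46, the last of these with adjusted p 0.0517 under quantile normalization). The mean level of all 8 was 5.88, 5.73, 5.74 and 5.53 on scr replicates 1, 2, 3 and 4, and 4.93, 5.11, 5.28 and 5.55 in siLox. Within both groups, Cd44 at bases 2614 and 5494 ranked the arrays opposite to this fibroblast mean, and Hyal1 at base 1603 ranked them alike. Hyal1 at base 2555 did so in scr, but in siLox replicates 1 and 2 (0.11 and 0.08) were exchanged. The cause of these orders was not tested. Of the 8 mesothelial markers, all 8 with an unadjusted p under 0.05 between siLox and scr, Krt19 was higher in siLox (0.77) and Gpm6a (−0.68), Wt1 (−0.34) and Upk3b (−0.29) were lower by limma's adjusted p; 2 were higher and 3 lower with median centring, and 2 higher and 4 lower with quantile normalization, normexp or the value table. Between the slides, 6 of 8 mesothelial markers were lower and 2 higher in siLoxL1 and in siLoxL2 than in scr, with means of 0.79 to 0.95 in scr, 0.66 to 0.74 in siLox, −0.62 to −0.27 in siLoxL1 and −0.64 to −0.43 in siLoxL2, while their summed level was 4.18 to 4.34 in scr and 4.40 to 4.58 on slide 2. Over all probes, 20.7% were lower and 38.5% higher in siLoxL1 than in scr, and 21.7% and 36.7% in siLoxL2. The part of other cells in the members' differences was not tested.

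The genes around the members were read from lists at the brightest probe of each gene. Their counts stand beside the shares of all probes that changed. These were 21.1% in siLox against scr and 6.73% in siLoxL1 against siLoxL2. Against scr they were 59.2% in siLoxL1 and 58.3% in siLoxL2, and a list's share near these is no result about the list. Hyaluronan is built from 2 nucleotide sugars, made by Ugdh, which gives the glucuronic acid donor, and by the hexosamine enzymes that start with Gfpt1 and Gfpt2. Between siLox and scr, 1 of the 7 precursor genes changed, Ugdh, which was lower (−0.37, SE 0.10, adjusted p 0.0411; 0.0507 with quantile normalization), and the list's median was −0.24 against −0.05 over all probes. Between siLoxL1 and siLoxL2 0 of 7 passed limma's adjusted p (3 at an unadjusted p under 0.05); Gfpt2 was 0.20 higher and Gfpt1 0.13 higher (adjusted p 0.161 and 0.190). Against scr 6 of 7 were higher in each of siLoxL1 and siLoxL2 (5 of 7 with quantile normalization or median centring, 7 of 7 with normexp). There Gfpt2 was higher by 2.25 and 2.04, Ugdh by 1.33 and 1.23, Uap1 by 0.64 and 0.56 and Gfpt1, in siLoxL1, by 0.59.

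Of 9 other genes of hyaluronan turnover, 5 could be tested between siLox and scr. Gusb, the lysosomal glucuronidase, was the 1 that changed, lower in siLox (−0.58, SE 0.12, adjusted p 0.0192). Between siLoxL1 and siLoxL2 0 of 6 passed limma's adjusted p (0 at an unadjusted p under 0.05); Hyal6, a relative of Hyal1, and Cemip, which promotes hyaluronan breakdown, differed by −0.29 and −0.13 (adjusted p 0.541 and 0.741). Against scr, Hexa, which encodes a lysosomal enzyme chain, was higher by 0.92 in siLoxL1 and 0.97 in siLoxL2, and Gusb by 0.76 and 0.71. Cemip2, a cell-surface relative of Cemip, was lower (−0.76 and −0.70). In all, 3 of 6 were higher and 2 lower in siLoxL1, and 3 higher and 1 lower in siLoxL2. Hyal6, not well above background on any scr array, is one of the higher ones, and its direction turned with normexp. The counts were 2 higher and 4 lower in siLoxL1 and 2 higher and 3 lower in siLoxL2 with normexp, and 3 higher and 2 lower in siLoxL2 with median centring.

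Among 15 other matrix binders, Ptx3, which links to heavy chains on hyaluronan, was 1.06 higher in siLox than in scr (SE 0.27, adjusted p 0.0337), the 1 change among 7 tested. Itih2, a heavy-chain gene, was lower in siLoxL1 than in siLoxL2 (−0.26, adjusted p 0.0494; 0.0509 with quantile normalization), the 1 change among 8. Against scr, aggrecan (Acan), a cartilage proteoglycan that binds hyaluronan as versican does, was lower (−1.65 in siLoxL1 and −1.81 in siLoxL2), and so was the link protein gene Hapln3 (−0.90 and −0.92). Itih2 was higher by 0.76 and 1.01. Itih1 and Hapln4, which were at or near background in scr, were listed as higher but turned with normexp, and in all 3 of 8 were higher and 2 lower in each comparison. With normexp 1 of 8 was higher and 6 were lower in each, Bcan and Itih4 also among those lower.

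Of 10 other receptors and CD44 linkers, 3 of 9 tested changed between siLox and scr. The scavenger receptor gene Stab1 was 0.54 higher (adjusted p 0.0456; 0.0504 with median centring). Layn (layilin) and Hmmr, a cell-cycle linked hyaluronan receptor, were lower (−0.47 and −0.35, adjusted p 0.0314 and 0.0271; Layn 0.0538 with normexp). Between siLoxL1 and siLoxL2 Layn was 0.30 higher (SE 0.04, adjusted p 0.0105) and moesin (Msn), which ties CD44 to actin, 0.27 higher (SE 0.05, adjusted p 0.0203; 0.0526 with quantile normalization), 2 of 10. Against scr 4 were higher and 5 lower in siLoxL1, and 3 higher and 5 lower in siLoxL2 (3 and 7, and 2 and 7, with normexp). Tlr4, a receptor that hyaluronan fragments can engage, was higher by 1.64 and 1.60. Tlr2 (−1.48 and −1.20), Stab1 (−0.76 and −0.93) and Ezr (−0.73 and −0.78), an actin linker like moesin, were lower. Stab2, not well above background on any scr array, was at least 1.30-fold and 1.26-fold higher, and turned with normexp.

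Of 6 proteases that cleave versican, 4 were tested between siLox and scr and 2 changed, both lower, while Vcan was higher. Any link between these transcripts was not tested. Adamts1 (−1.03, SE 0.21, adjusted p 0.0189) and Adamts5 (−0.75, SE 0.21, adjusted p 0.0441) also passed with quantile normalization, median centring, normexp and the value table. Between siLoxL1 and siLoxL2 0 of 5 passed limma's adjusted p (2 at an unadjusted p under 0.05); Adamts15 differed by −0.36 (SE 0.91) and Adamts4 by 0.21 (adjusted p 0.833 and 0.0965). Against scr 2 of 5 were higher in siLoxL1, Adamts4 by 0.33 (not called with quantile normalization or the value table) and Adamts15, at least 3.24-fold, and 1 in siLoxL2, Adamts15, at least 4.16-fold. Adamts15 was not well above background on any scr array, and it did not pass with normexp. Adamts1 did not pass in siLoxL1 against scr (−0.53, adjusted p 0.0640), but was called lower there with quantile normalization (−0.67), normexp (−0.45) and the value table (−0.67), each of which gave 1 higher and 1 lower of 5. In siLoxL2 Adamts4 was the 1 called higher with normexp (0.23).

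**Figure D5:**
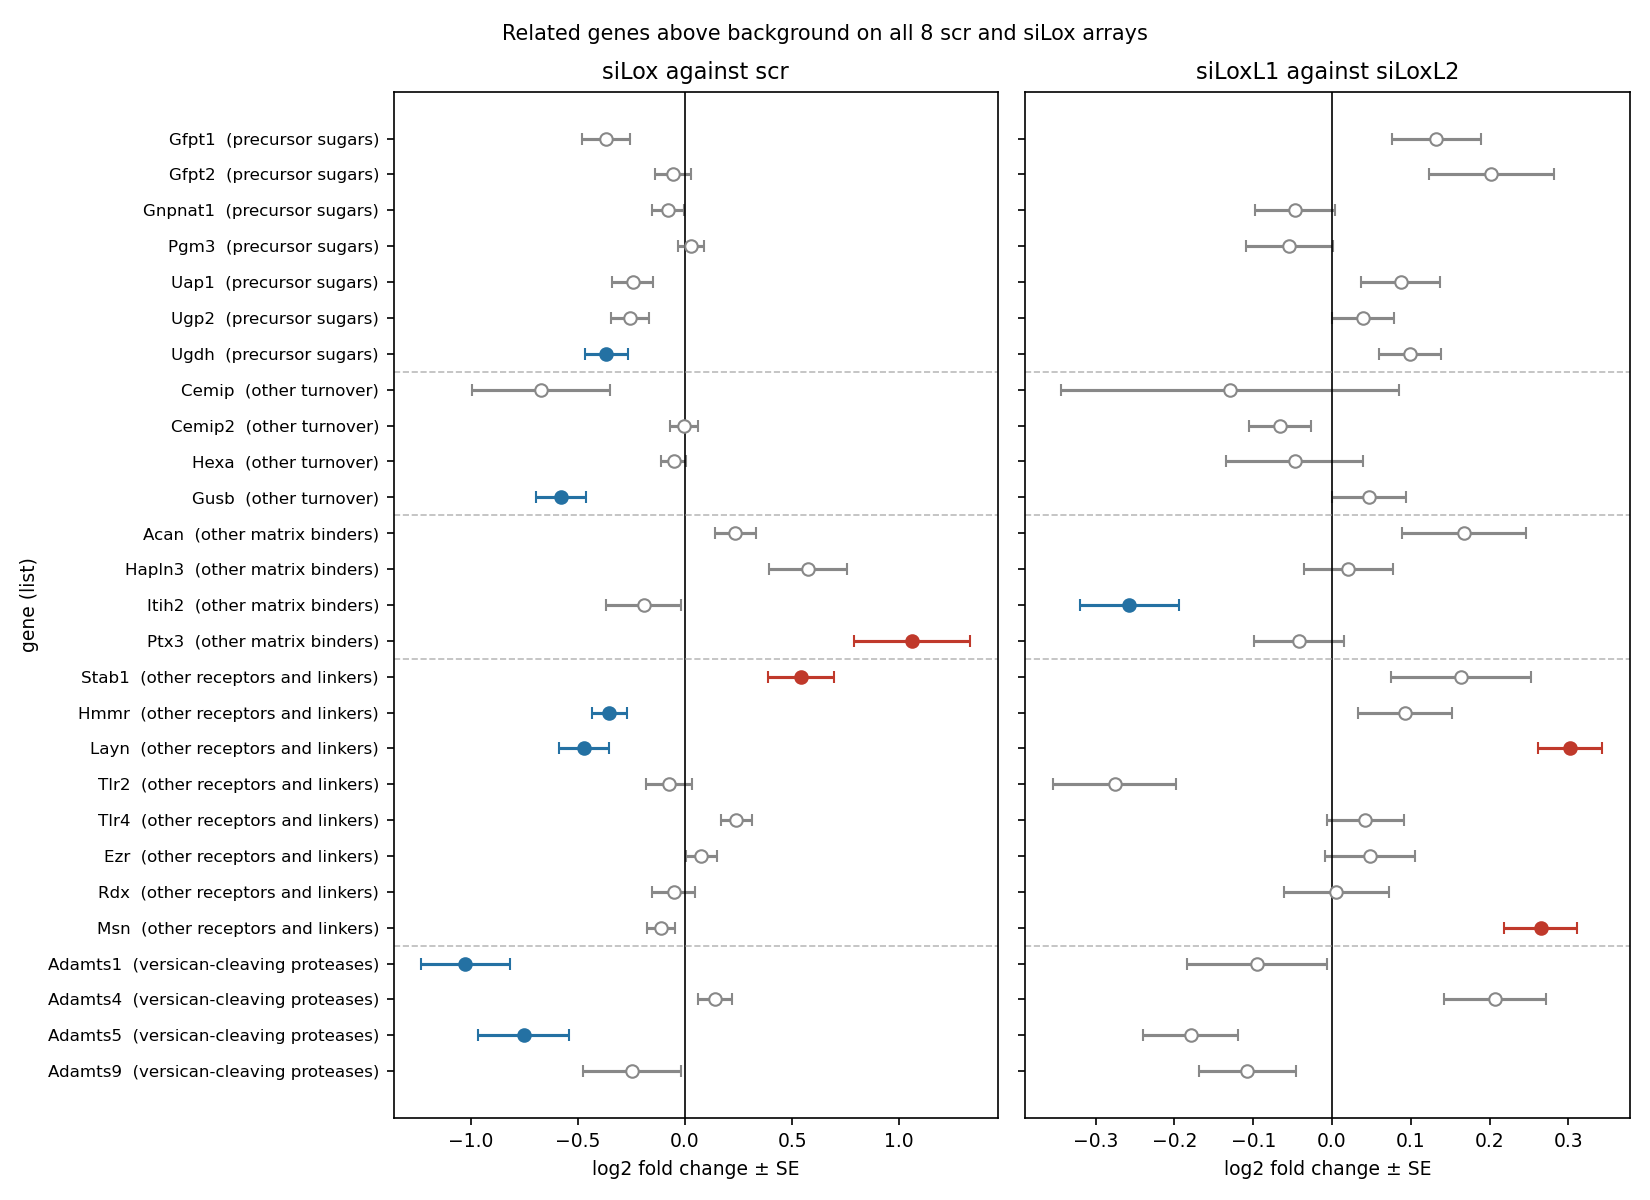
Log2 fold changes (points) with SE (bars) of 27 related genes that were well above background on all 8 arrays of scr and siLox, for the 2 comparisons within a slide; filled points passed an adjusted p of 0.05 (red higher, blue lower) and dashed lines separate the lists. Adamts1 (−1.03) and Ptx3 (1.06) lie farthest from 0 in siLox against scr, and Layn is lower in that comparison and higher in siLoxL1 against siLoxL2; the 2 panels have different axis ranges.

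Genes whose pattern over the 16 arrays was most like that of each member were found after each slide's mean had been subtracted, among 12725 genes. The closest were Nt5dc3 and Dnajc21 for Has1 (Pearson r 0.95 and 0.93), Golga7 and Appbp2 for Has2 (0.95 and 0.93), Itfg1 and Golm1 for Hyal1 (0.99 and 0.98) and Lrp12 and Appbp2 for Hyal2 (0.94 and 0.94). For Vcan they were Ldlrad4 and Akr1b8 (0.93 and 0.93) and for Cd44 Ice2 and Snhg5 (0.99 and 0.98). Tnfaip6, whose level hardly varied, had lower values (Prr9 0.84 and Rhebl1 0.80). These are the highest of many correlations over the same 16 arrays and are a description.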

How the data were processed

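Total RNA of primary mouse lung fibroblasts in 4 groups of 4 samples was labelled with Cy3 and hybridised to 1-colour Agilent arrays of 62976 spots. The scanner values are background-subtracted intensity readings of single spots, from Agilent Feature Extraction version 10.7.3.1 per the file headers and the submitters' processing notes. In the deposited value table, used as an alternative, the log2 columns hold nearly the same sorted values (within 0.000965), as quantile normalization gives, and each has a median of 4.83. Other columns used are flags deposited with the scanner values. Groups came from the sample labels and probe names and positions from the scanner files.

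Outlier spots were left out, spots of a probe averaged, and log2 values taken relative to the 75th percentile of each array. No spot was saturated, and within groups r was 0.986 to 0.998. The number of arrays limits the precision. Probes detected throughout the 4 arrays of some group were kept (32476, of which 46 had no usable spot on some array). limma 3.58.1 in R 4.3.3 (lmFit, eBayes) was fitted per probe on the 8 arrays compared, adjusted by Benjamini-Hochberg over 32430 probes, and tested on simulated data. The fit of 8 arrays was chosen because the spread differs between the slides. Where a group had no array above background, a fold is a lower bound against the higher of the probe's own value and the lowest value well above background on each array.

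The members, lists and alternatives were chosen with earlier results of these data known. All members are named at every probe; of each related list up to 4 genes that passed with the largest change are named, or 2 where none passed, and for likeness 2 genes per member. Markers were a fixed list per cell type. A gene of the turnover list is not reported here and is left out of its counts. Replicate numbers were shared between groups, but the labels tie them to no shared source, and the comparisons are unpaired. Alternatives were other normalizations, background correction, filters, fits of all 16 arrays, array weights, a replicate block and leaving out arrays.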

Additional observations from a re-analysis of the deposited data

Results flagged for a closer look

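Of 50 groups of 4 arrays tested at the member probes, 1 held an array that stood apart from the other 3, and chance alone marks about 1 in 20 groups. At the brightest Tnfaip6 probe, siLoxL2 replicate 2 had a level of −2.03 where the other siLoxL2 arrays had −1.94 to −1.92. The gap was 0.843 of the group's range, past Dixon's 95% critical value for 4 samples, and the whole range is narrow.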

How the results depend on the processing

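Over 1010 values of single member probes under the alternatives, 878 kept their side of the threshold, 98 lost the call, 31 gained one and 3 reversed. A further 31 values that passed in neither setting changed sign; these are among the 878 and are at most 0.195 in size. The reversed values, on the log2 scale, were Hyal2 in siLoxL2 against scr with quantile normalization (−0.00068) and the value table (−0.0015), and Cd44 at base 1965 in siLoxL1 against scr with normexp (−0.48). The cause was not tested.

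For siLox against scr, 6851 probes passed, and 12844 with all 16 arrays in the fit, 11824 with array weights, 2623 with no filter and 0 with the replicate block by limma (9671 at an unadjusted p under 0.05), with 1745 to 9937 leaving out 1 array. Of the 13 member probes 6 passed, and 2 with no filter, 0 with the replicate block (6 at an unadjusted p under 0.05, smallest adjusted p 0.104) and 0 to 8 leaving out 1 array. For siLoxL1 against siLoxL2, 2182 probes passed, and 1033 with all 16 arrays, 515 with the replicate block, 412 with no filter, 162 without replicate 4 of both groups and 564 to 1320 leaving out 1 array. The members gave 5, and 3 with all 16 arrays, 2 with the block, 2 with no filter, 0 without replicate 4 of both groups (6 at an unadjusted p under 0.05, limma) and 2 to 5 leaving out 1 array. Against scr, no filter gave 33809 probes for siLoxL1 and 32794 for siLoxL2, out of all probes, and leaving out 1 array 17092 to 20223 and 16630 to 19915. With normexp all 13 member probes passed in each (8 higher, 5 lower), and leaving out 1 array gave 7 to 8 and 6 to 7. The replicate block left 8 and 5 member calls there. The replicate numbers, which are also the arrays' columns on each slide, were not taken as pairs, since the labels tie them to nothing shared and not every pair of deviations correlated clearly above 0. The correlations were −0.15 to −0.00356 for siLox against scr and 0.11, 0.20, 0.11 and 0.04 for siLoxL1 against siLoxL2, where 3 of 4 siLoxL1 arrays correlated best with their own number, a hint from the data that numbers may be shared there. Has1, Hyal2 and Cd44 at base 2614 did not pass there with the block (adjusted p 0.0839, 0.0555 and 0.0515).

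Dim probes (Has3, Tnfaip6 at bases 906 and 1541, Cd44 at base 1965, Vcan at base 3166) lie near background, which limits what they can show: Tnfaip6 at base 1541 and Cd44 at base 1965 were called against scr with normexp only or without 1 array.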
